A study of Homo sapiens with 8 samples.

Results

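The proteasome subunit genes are the entries of the expression table whose symbol begins with PSM, followed by 1 of the letters A to G and a number, a rule that rests on names and on no measured value. The rule found 48 of 29991 entries, and no symbol was repeated among them. Of these, 5 genes form the inducible immunoproteasome group, PSMB8, PSMB9, PSMB10, PSME1 and PSME2. The other 43 genes are constitutive subunits, activators, an inhibitor and assembly factors. RNA was measured in MCF10A cells, an immortalised and non-tumorigenic line of human mammary epithelium, after transfection of siRNA against LATS1 and LATS2 (siLATS1/2), siRNA against p53 (sip53), siRNA against all of these (siLATS1/2/p53), or a control siRNA (siControl). All 4 groups therefore were MCF10A cells that had received siRNA, and each had 2 libraries, 1 from each of 2 batches of cells that per the labels were independent. The labels give neither the time after transfection nor the siRNA dose.

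Expression was given as log2 levels with a floor of 5, and 46 of the 48 genes entered the test because they exceeded that floor in 2 or more libraries. PSMA8, a core subunit known from testis, and PSMB11, a catalytic subunit known from the thymic cortex, were listed at the floor in all 8 libraries. Levels of different genes are not compared here, because the values are not given per length. The spacing of low values implied 11.3 to 37.1 M reads per library, and siLATS1/2/p53 replicate 1 and siControl replicate 1 were the 2 shallowest. LATS1 averaged 8.02 ± 0.12 in siLATS1/2 cells and 9.59 ± 0.07 in siControl cells (log2, SD, n = 2 each). CDKN1A, a gene that p53 activates, averaged 9.94 ± 0.17 in sip53 cells and 12.56 ± 0.38 in siControl cells. All 10 basal mammary epithelial markers lay above the floor, among them KRT5, KRT14 and TP63. Of the fibroblast markers, COL1A2, COL3A1, LUM, PDGFRA and PDGFRB were at the floor in every library. COL1A1 lay between 6.60 and 7.75, and DCN was 8.39 in batch 1 and at the floor in batch 2 in siLATS1/2/p53 cells, 7.87 and at the floor in siLATS1/2, 9.53 and 6.14 in sip53, and 9.86 and 7.02 in siControl cells. With the batch of cells as a block in the test, DCN was called lower than in siControl in all 3 knockdown groups, and its part in the results was not tested. Listed at the floor in every library, too, were PTPRC, CD3E and LYZ among the blood markers.

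The proteasome degrades ubiquitin-tagged proteins inside a barrel-shaped core particle. Alpha subunits form the outer rings and gate the barrel, and beta subunits form the inner rings, where PSMB5, PSMB6 and PSMB7 carry the active sites. A regulatory particle of ATPase (PSMC) and non-ATPase (PSMD) subunits captures, unfolds and feeds substrates into the core. Interferons induce PSMB8, PSMB9 and PSMB10, which take the places of PSMB5, PSMB6 and PSMB7 in newly built cores and favour peptides suited to presentation on major histocompatibility complex (MHC) class I molecules. PSME1 and PSME2 form an alternative cap, the activator called PA28 alpha-beta, which interferon also induces.

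The promoter windows of the 5 inducible genes are printed with that of PSMB2, the constitutive core subunit with the smallest adjusted p-value, because inducible and constitutive genes held a paired interferon motif at different shares. Each window runs from 250 bases before to 50 bases after the annotated start in RefSeq, build GRCh38.p14, read 5′ to 3′ on the strand of the gene. Capitals mark the matches, on either strand, to a pair of interferon regulatory factor half-sites (GAAA, any 2 bases and GAAA again), to an interferon-gamma activated site (TTCNNNGAA) and to the NF-Y box (CCAAT). PSMB8 has 2 starts in RefSeq, and the window of the start that held matches to these motifs is shown.
PSMB8, chr6:32843998-32844297, minus strand: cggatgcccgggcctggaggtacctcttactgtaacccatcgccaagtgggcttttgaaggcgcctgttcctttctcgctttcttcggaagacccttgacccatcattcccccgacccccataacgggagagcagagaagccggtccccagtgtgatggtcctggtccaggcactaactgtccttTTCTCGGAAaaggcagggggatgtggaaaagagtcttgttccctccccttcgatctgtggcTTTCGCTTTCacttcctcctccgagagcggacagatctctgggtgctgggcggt
PSMB9, chr6:32853942-32854241, plus strand: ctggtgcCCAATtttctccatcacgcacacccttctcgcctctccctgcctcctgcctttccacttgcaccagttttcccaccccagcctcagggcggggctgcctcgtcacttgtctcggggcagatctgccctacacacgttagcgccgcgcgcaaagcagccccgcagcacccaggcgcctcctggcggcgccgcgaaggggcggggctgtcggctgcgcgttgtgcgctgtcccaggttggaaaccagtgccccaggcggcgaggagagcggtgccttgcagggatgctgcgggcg
PSMB10, chr16:67936801-67937100, minus strand: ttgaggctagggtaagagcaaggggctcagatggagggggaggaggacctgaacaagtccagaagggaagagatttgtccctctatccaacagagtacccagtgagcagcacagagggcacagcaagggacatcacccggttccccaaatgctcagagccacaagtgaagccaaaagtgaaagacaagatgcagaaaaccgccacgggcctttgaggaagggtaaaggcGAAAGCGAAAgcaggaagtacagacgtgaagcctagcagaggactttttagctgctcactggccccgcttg
PSME1, chr14:24135944-24136243, plus strand: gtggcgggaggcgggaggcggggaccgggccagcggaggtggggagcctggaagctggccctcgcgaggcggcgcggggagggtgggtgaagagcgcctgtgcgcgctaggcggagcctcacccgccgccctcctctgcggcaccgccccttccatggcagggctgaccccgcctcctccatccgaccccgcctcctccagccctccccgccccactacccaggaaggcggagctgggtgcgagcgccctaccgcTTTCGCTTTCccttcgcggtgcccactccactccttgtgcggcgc
PSME2, chr14:24146561-24146860, minus strand: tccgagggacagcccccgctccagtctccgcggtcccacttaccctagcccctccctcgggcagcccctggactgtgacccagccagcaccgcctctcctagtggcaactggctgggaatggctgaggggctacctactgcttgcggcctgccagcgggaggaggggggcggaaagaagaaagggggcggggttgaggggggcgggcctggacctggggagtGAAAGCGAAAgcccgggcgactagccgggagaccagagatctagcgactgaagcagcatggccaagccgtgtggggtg
PSMB2, chr1:35641477-35641776, minus strand: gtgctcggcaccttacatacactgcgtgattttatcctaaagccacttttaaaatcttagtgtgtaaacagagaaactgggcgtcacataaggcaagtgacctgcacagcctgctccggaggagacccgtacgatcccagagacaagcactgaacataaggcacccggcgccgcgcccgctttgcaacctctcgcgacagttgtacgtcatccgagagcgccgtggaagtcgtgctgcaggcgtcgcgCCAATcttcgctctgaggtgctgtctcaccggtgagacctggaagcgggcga

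The paired half-site occurred in 4 of the 5 inducible genes and in 3 of the 37 other genes that have a RefSeq window, namely PSMA4, PSMB4 and PSMG4. It occurred in 3.57% of all 35114 promoter windows. Its first base lay 4 bases before the start in PSMB8, 21 before in PSMB10, 28 before in PSME2 and 5 after it in PSME1, and the PSMB9 window held no match. The interferon-gamma activated site occurred in 1 inducible gene, PSMB8, and in 7 of the 37 others, against 7.66% of all windows. The NF-Y box occurred in 1 inducible gene, PSMB9, and in 19 of the 37 others, against 34.6% of all windows, and in PSMB2 it began 2 bases before the start. The antioxidant response core (TGANNNNGC) was in 4 of 5 and 24 of 37 genes, against 41.8% of windows, and the TEAD box (GGAATG) in 2 of 5 and 5 of 37, against 14%. Genes with 2 starts had 2 windows, so these shares are descriptions, and a match is not evidence that a factor binds there.

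All 5 immunoproteasome genes were higher in siLATS1/2/p53 than in siControl cells, by log2 differences of 0.73 to 2.50, while the 41 other tested genes ran from −0.34 to 0.84. PSMB8, whose product replaces PSMB5 and carries the chymotrypsin-like activity, was 10.48 and 10.08 in siLATS1/2/p53 cells. In the other groups PSMB8 was 9.48 and 9.10 in siLATS1/2 cells, 9.88 and 9.48 in sip53 cells, and 9.17 and 8.88 in siControl cells. The siLATS1/2/p53 libraries were the highest of the 8, whereas the siLATS1/2 and siControl libraries overlapped. PSMB8 was 2.38-fold higher in siLATS1/2/p53 than in siControl cells (log2 difference 1.25 ± 0.21, SE; limma, adjusted p = 0.0108).

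PSMB9, which replaces PSMB6, was 7.66 and 7.35 in siLATS1/2/p53 cells and was listed at the floor of 5 in both siControl libraries. It was 6.68 and 5.19 in siLATS1/2 cells, and 6.56 and 5.58 in sip53 cells, so that the batches stood far apart in the single knockdowns. The log2 difference of siLATS1/2/p53 from siControl was 2.50 ± 0.49 (adjusted p = 0.0176), measured against the floor. PSMB10, which replaces PSMB7, was 9.06 and 8.95 in siLATS1/2/p53 cells and 8.26 and 8.29 in siControl cells, with 8.81 and 8.50 in siLATS1/2 and 8.49 and 8.33 in sip53 cells. Its groups did not overlap, and it was 1.65-fold higher in siLATS1/2/p53 than in siControl cells (0.73 ± 0.14, adjusted p = 0.0173).

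The activator genes moved in the same direction. PSME1 was 10.21 and 9.97 in siLATS1/2/p53 cells and 9.28 and 9.09 in siControl cells, with 9.71 and 9.40 in siLATS1/2 and 9.68 and 9.51 in sip53 cells. PSME2, its partner in the ring, was 9.88 and 9.81 in siLATS1/2/p53 cells and 8.88 and 8.78 in siControl cells, with 9.13 and 8.87 in siLATS1/2 and 9.55 and 9.31 in sip53 cells. For both genes the siLATS1/2/p53 libraries lay above all 6 others. PSME1 was 1.87-fold higher in siLATS1/2/p53 than in siControl cells (0.90 ± 0.15, adjusted p = 0.0101) and PSME2 2.02-fold higher (1.02 ± 0.13, adjusted p = 0.0044).

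**Figure D1:**
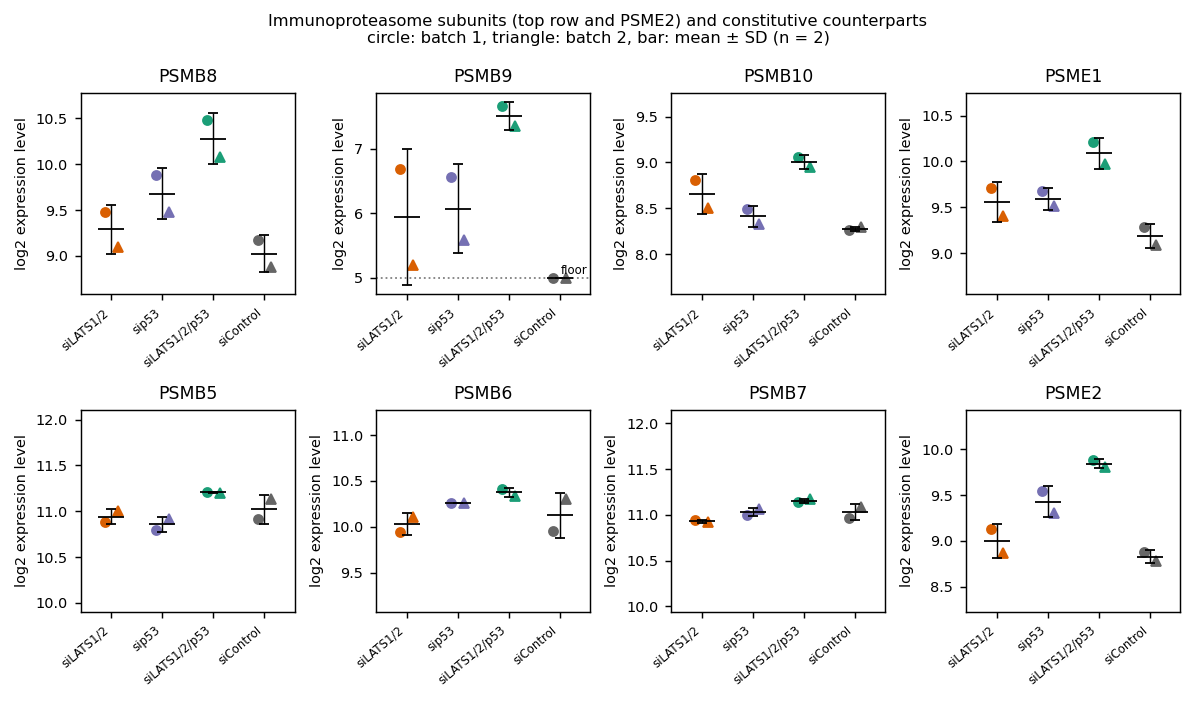
Log2 expression levels of the inducible subunits (top row and the lower right panel) and of PSMB5, PSMB6 and PSMB7, by siRNA group. Circles are batch 1, triangles batch 2, bars the mean ± SD (n = 2), and the dotted line the floor of 5. PSMB8 lay between 10.08 and 10.48 in siLATS1/2/p53 cells and between 8.88 and 9.17 in siControl cells, while PSMB5 lay between 10.80 and 11.21 over all 8 libraries.

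The constitutive counterparts passed in no comparison without the block, and not against siControl with it. With the block, all 3 were called higher in siLATS1/2/p53 than in siLATS1/2 cells, beside 33.8% of all entries. The log2 differences there were 0.27 for PSMB5, 0.35 for PSMB6 and 0.23 for PSMB7. PSMB5 was also called higher than in sip53 cells with the block. PSMB5 was 11.21 and 11.20 in siLATS1/2/p53 cells and 10.91 and 11.13 in siControl cells, with 10.88 and 11.00 in siLATS1/2 and 10.80 and 10.91 in sip53 cells. PSMB6 was 10.41 and 10.34 in siLATS1/2/p53 cells and 9.95 and 10.30 in siControl cells, with 9.94 and 10.11 in siLATS1/2 and 10.26 in both sip53 libraries. PSMB7 was 11.14 and 11.17 in siLATS1/2/p53 cells and 10.97 and 11.09 in siControl cells, with 10.94 and 10.92 in siLATS1/2 and 11.00 and 11.06 in sip53 cells. The siLATS1/2/p53 libraries lay above the siControl libraries for all 3 genes, by small amounts. The log2 differences were 0.19 ± 0.10 for PSMB5 (adjusted p = 0.245), 0.25 ± 0.13 for PSMB6 (adjusted p = 0.249) and 0.12 ± 0.08 for PSMB7 (adjusted p = 0.345).

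Where both genes lie above the floor, the difference between an inducible subunit and its counterpart within a library does not depend on library scaling. This does not hold for PSMB9 in siControl cells, which was at the floor in both libraries. The log2 level of PSMB8 minus that of PSMB5 averaged −1.65 in siLATS1/2, −1.18 in sip53, −0.93 in siLATS1/2/p53 and −1.99 in siControl cells. Its difference from siControl in siLATS1/2/p53 cells was 1.01 in batch 1 and 1.12 in batch 2. PSMB9 minus PSMB6 averaged −4.09 in siLATS1/2, −4.19 in sip53, −2.87 in siLATS1/2/p53 and −5.13 in siControl cells, where PSMB9 was at the floor. For this pair the siLATS1/2 libraries differed widely, with −3.26 in batch 1 and −4.92 in batch 2. PSMB10 minus PSMB7 averaged −2.28 in siLATS1/2, −2.62 in sip53, −2.15 in siLATS1/2/p53 and −2.75 in siControl cells. The siLATS1/2/p53 value of each of the 3 pairs was above its siControl value in both batches. With 2 libraries against 2 an exact two-sided permutation test cannot give a p below 0.333, and these values are given with no test.

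**Figure D2:**
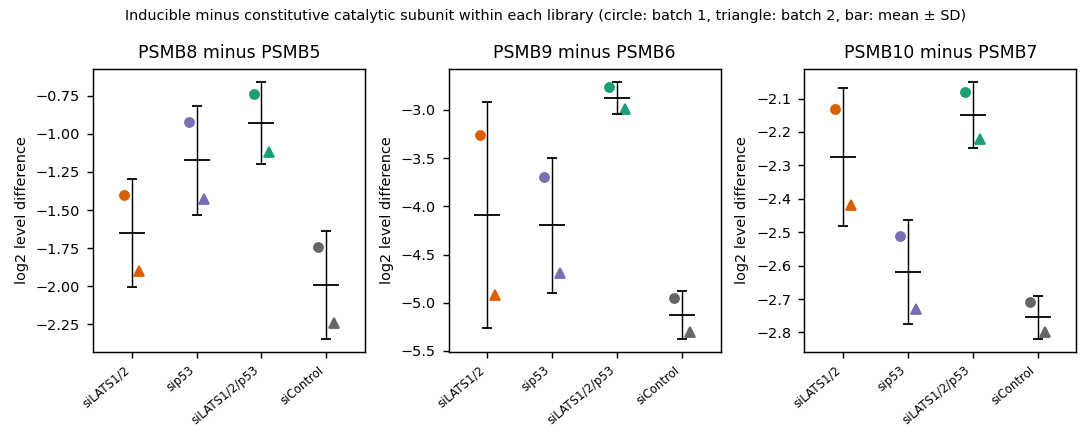
Log2 level of PSMB8 minus PSMB5, PSMB9 minus PSMB6 and PSMB10 minus PSMB7 within each library, by siRNA group, with batch 1 as circles, batch 2 as triangles and bars for the mean ± SD (n = 2). PSMB8 minus PSMB5 averaged −0.93 in siLATS1/2/p53 cells and −1.99 in siControl cells.

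Across the whole set, 8 of the 46 tested genes were higher and 1 was lower in siLATS1/2/p53 than in siControl cells, beside 9.07% and 5.48% of all 12315 tested entries. These 8 were the 5 inducible genes, PSMB2, PSMA3 and PSMB3. Of the 41 other tested genes, 3 were called higher and 1 lower, a share near the background. The median log2 difference was 1.02 over the inducible genes, 0.12 over the 41 others and 0.08 over all entries. With the batch as a block, 17 were called higher and 1 lower, beside 25.5% and 13.8% of all entries. The count of higher genes fell to 4 without siControl replicate 1, to 5 without siControl replicate 2, to 2 without siLATS1/2/p53 replicate 1 and to 5 without siLATS1/2/p53 replicate 2. It was 0 without the 2 shallowest libraries, where the log2 differences were still 1.20 for PSMB8, 2.35 for PSMB9, 0.65 for PSMB10, 0.88 for PSME1 and 1.03 for PSME2 (adjusted p between 0.135 and 0.271).

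PSMB2, a beta subunit without an active site, was the constitutive core gene that moved most. It was 11.80 and 11.59 in siLATS1/2/p53 cells and 10.80 and 10.92 in siControl cells, with 10.96 and 11.11 in siLATS1/2 and 11.33 and 11.28 in sip53 cells. The 4 groups did not overlap, and siLATS1/2/p53 exceeded siControl 1.79-fold (0.84 ± 0.10, adjusted p = 0.00364). PSMA3, an alpha ring subunit, was 10.47 and 10.15 in siLATS1/2/p53 cells and 9.68 and 9.63 in siControl cells, with 9.84 and 9.70 in siLATS1/2 and 10.16 and 10.10 in sip53 cells. Its siLATS1/2/p53 and sip53 libraries overlapped and both groups lay above the rest, with a 1.58-fold rise in siLATS1/2/p53 over siControl cells (0.66 ± 0.12, adjusted p = 0.0158). PSMB3, another beta subunit without an active site, was 10.77 and 10.74 in siLATS1/2/p53 cells and 10.11 and 10.41 in siControl cells, with 10.18 and 10.34 in siLATS1/2 and 10.55 and 10.54 in sip53 cells. Its rise was 1.41-fold (0.50 ± 0.12, adjusted p = 0.0312), and after rescaling by medians of ratios it no longer passed (adjusted p = 0.0512).

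PSME4, which encodes the activator PA200, was the gene that fell. It was 11.75 and 11.77 in siLATS1/2/p53 cells and 12.13 and 12.07 in siControl cells, with 11.82 and 11.90 in siLATS1/2 and 11.95 and 12.06 in sip53 cells. The siLATS1/2/p53 libraries were the lowest of the 8, and the log2 difference from siControl was −0.34 ± 0.08 (adjusted p = 0.0296). The call was lost in each of the 8 fits that left out 1 library. PSME3, the nuclear PA28 gamma activator, ranged between 11.96 and 12.35 and PSMF1, an inhibitor of the core, between 11.04 and 11.43 over the 8 libraries, and neither passed in any comparison.

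LATS1/2 knockdown alone called no proteasome gene in limma without the block, beside 2.81% of entries higher and 4.89% lower. An unadjusted p under 0.05 was reached by 8 of the 46 members, beside 25.2% of all entries, a share below the background. With the batch as a block, PSMB8, PSMB9, PSMB10 and PSME1 were called higher and 11 constitutive genes lower, beside 10.5% and 21.4% of entries. In siLATS1/2 against siControl cells, PSMB8 differed by 0.26 ± 0.21 (adjusted p = 0.49, and 0.0373 with the block), PSMB9 by 0.94 ± 0.49 (0.286 and 0.0184), PSMB10 by 0.37 ± 0.14 (0.151 and 0.026) and PSME1 by 0.37 ± 0.15 (0.179 and 0.00734). PSME2 differed by 0.17 ± 0.13 and passed in neither fit (0.48 and 0.211). Without siLATS1/2 replicate 1, and with the block, none of the 4 was called. The differences were then 0.26 for PSMB8 (adjusted p = 0.2), 0.41 for PSMB9 (0.443), 0.26 for PSMB10 (0.294) and 0.31 for PSME1 (0.126), so that of PSMB9 shrank and that of PSMB8 did not.

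The 11 genes called lower with the block after LATS1/2 knockdown were PSMA2, PSMA5, PSMA7, PSMD2, PSMD3, PSMD4, PSMD13, PSMD14, PSME4, PSMG1 and PSMG2. Of all entries 21.4% were called lower in that fit, so this count of the 46 members was near the background. Without siLATS1/2 replicate 1, and with the block, 0 members were called lower, while the differences of PSMA7 (−0.26), PSMD4 (−0.32) and PSME4 (−0.22) stayed close to those with all libraries. The largest fall was that of PSMG2, an assembly chaperone of the alpha ring, by −0.37 ± 0.11 in log2 difference (adjusted p = 0.0835 without the block and 0.00709 with it). PSMD14, the deubiquitinase of the regulatory particle, differed by −0.32 ± 0.10 (0.104 and 0.00772). All 11 regulatory particle non-ATPase genes and all 6 ATPase genes had differences below 0, with medians of −0.22 and −0.15. The median over all tested entries was −0.07, and 7542 of the 12315 were below 0. In both batches 32 of the 41 constitutive and other genes were below 0, beside 5876 of all 12315 tested entries. After rescaling, the median of all tested members moved to −0.07 and, with the block as well, 2 genes stayed called lower.

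p53 knockdown alone called no proteasome gene in limma without the block, beside 1.76% of entries higher and 2.1% lower. The unadjusted p was under 0.05 for 7 of the 46 members, beside 21.4% of all entries. With the block, 9 genes were called higher and none lower, beside 16% and 10% of entries, a share close to the background. They were PSMB8, PSMB9, PSME1, PSME2, PSMB2, PSMB3, PSMA3, PSMA4 and the chaperone gene PSMG1. In sip53 against siControl cells, PSMB8 differed by 0.65 ± 0.21 (adjusted p = 0.138, and 0.000182 with the block), PSMB9 by 1.07 ± 0.49 (0.262 and 0.0112), PSME1 by 0.41 ± 0.15 (0.175 and 0.00478) and PSME2 by 0.60 ± 0.13 (0.0548 and 0.000688). PSMB10 differed by 0.13 ± 0.14 and passed in neither fit (0.641 and 0.438). PSMB2 differed by 0.44 ± 0.10 (0.0631 and 0.00246) and PSMA3 by 0.48 ± 0.12 (0.0855 and 0.002). The median difference was 0.60 over the inducible genes, 0.11 over the others and 0.06 over all entries.

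**Figure D3:**
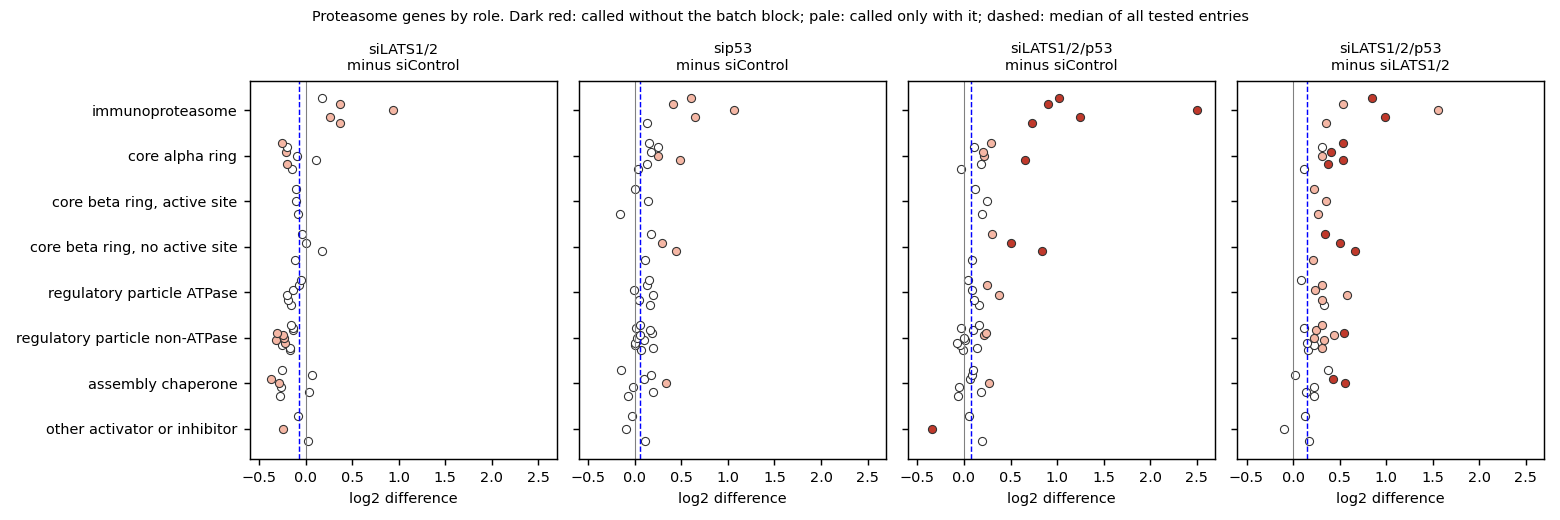
Log2 difference of each of the 46 tested proteasome genes, by role, in 4 comparisons. Dark red points were called without the batch block, pale points only with it, and the dashed line is the median of all tested entries, which was 0.15 between siLATS1/2/p53 and siLATS1/2 cells. Between siLATS1/2/p53 and siControl cells all 5 immunoproteasome genes are dark red, between 0.73 and 2.50.

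Under the deposited scaling, more members were called between siLATS1/2/p53 and siLATS1/2 cells than in the other comparisons. Between siLATS1/2/p53 and siLATS1/2 cells, 12 of 46 genes were called higher and none lower, beside 11.3% and 3.22% of entries, and 45 of 46 differences were above 0. The median was 0.31 over the members and 0.15 over all tested entries, so the table as a whole was shifted upwards in this comparison. In both batches 38 of the 41 constitutive and other genes were above 0, beside 7061 of all 12315 tested entries. With the block, 30 genes were called higher, beside 33.8% of entries. Rescaling by medians of ratios brought the median of all entries to 0.00 and that of the members to 0.16, and left 4 genes called higher, PSMB2, PSMD4, PSMB8 and PSME2, beside 4.44% of entries. Under that scaling 7 were called higher and 1 lower in siLATS1/2/p53 against siControl cells, so the order of the comparisons turned. Over all entries and both directions joined, rescaling left 1761 calls against siControl and 1200 against siLATS1/2. The turn is therefore not read as a result about the members. Without siLATS1/2 replicate 1, siLATS1/2 replicate 2 or siLATS1/2/p53 replicate 1 the count was 0, without siLATS1/2/p53 replicate 2 it was 4, without either sip53 library it was 5, and without the 2 shallowest libraries it was 0.

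Of these 12 genes, 4 encode alpha ring subunits (PSMA2, PSMA3, PSMA5, PSMA7) and 3 beta subunits without an active site (PSMB2, PSMB3, PSMB4). Another 2 are inducible (PSMB8, PSME2), 2 are alpha ring chaperones (PSMG1, PSMG2), and PSMD4 is a ubiquitin receptor of the regulatory particle. PSMB8 differed by 0.99 ± 0.21 (adjusted p = 0.0239), PSME2 by 0.85 ± 0.13 (0.0102) and PSMB2 by 0.66 ± 0.10 (0.0102) between siLATS1/2/p53 and siLATS1/2 cells. PSMD4 was 10.26 and 10.31 in siLATS1/2/p53 cells and 9.72 and 9.76 in siLATS1/2 cells, with 10.23 and 10.22 in sip53 and 9.95 and 10.14 in siControl cells. PSMA7 was 12.33 in both siLATS1/2/p53 libraries and 11.73 and 11.84 in siLATS1/2 cells, with 12.15 and 12.24 in sip53 and 11.91 and 12.17 in siControl cells. PSMG1 was 10.42 and 10.12 in siLATS1/2/p53 cells and 9.71 and 9.72 in siLATS1/2 cells, with 10.39 and 10.28 in sip53 and 10.08 and 9.92 in siControl cells. For these 3 genes the siLATS1/2 libraries were the lowest of all 8. The differences were 0.55 ± 0.10 for PSMD4 (adjusted p = 0.0137), 0.54 ± 0.10 for PSMA7 (0.017) and 0.56 ± 0.12 for PSMG1 (0.0256), and those of PSMA7 and PSMG1 did not pass after rescaling.

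Near the threshold stood PSMA5 (0.41 ± 0.10, adjusted p = 0.0352), PSMA2 (0.38 ± 0.09, 0.0361), PSMB4 (0.34 ± 0.08, 0.0365) and PSMG2 (0.43 ± 0.11, 0.0395), also called higher in siLATS1/2/p53 than in siLATS1/2 cells. Just outside the threshold of 0.05 were PSMD11, a non-ATPase subunit (0.31 ± 0.09, adjusted p = 0.0508), PSME1 (0.54 ± 0.15, 0.0524) and PSMC3, an ATPase (0.58 ± 0.16, 0.0525). With the block these genes and all the inducible ones were called higher, beside 33.8% of all entries. The adjusted p in limma was then 0.000399 for PSME1. It was 0.0736 without the block and 0.00054 with it for PSMB9 (1.56), and 0.132 and 0.0268 for PSMB10 (0.35). None of the 6 ATPase genes passed without the block. They ran between 0.09 and 0.58, with a median of 0.31.

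Adding LATS1/2 knockdown to p53 knockdown called no member in limma without the block, beside 2.54% of entries higher and 1.12% lower. The unadjusted p was under 0.05 for 8 of the 46 members, beside 18% of all entries. With the block, the 5 inducible genes, PSMB2 and PSMB5 were called higher and PSME4 lower, beside 12.7% and 9.42% of entries. Between siLATS1/2/p53 and sip53 cells, PSMB8 differed by 0.60 ± 0.21 (adjusted p = 0.189, and 0.000282 with the block), PSMB9 by 1.43 ± 0.49 (0.181 and 0.00188) and PSMB10 by 0.59 ± 0.14 (0.0707 and 0.0024). PSME1 differed by 0.49 ± 0.15 (0.136 and 0.00136), PSME2 by 0.41 ± 0.13 (0.156 and 0.00815) and PSMB5 by 0.35 ± 0.10 (0.114 and 0.00429). The medians were 0.59 over the inducible genes, 0.02 over the others and 0.01 over all entries. With the block and without siLATS1/2 replicate 1, a library of neither group, 7 genes were called higher, and PSME4 was not called (adjusted p = 0.0541).

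The interaction asked whether the effect of LATS1/2 knockdown differed between cells with and without p53 knockdown. No member passed in limma in either fit, beside 0% of entries without the block and 2.03% with it, so no member's effect was shown to depend on the other knockdown. Without the block 4 of the 46 members had an unadjusted p under 0.05, beside 6.55% of all entries, a share near the background. The smallest adjusted p with the block was 0.0578, for PSMB5, with an interaction of 0.43 ± 0.14. The median interaction was 0.21 over the members and 0.10 over all entries. For the inducible genes the interactions ran from 0.13 ± 0.21 for PSME1 to 0.49 ± 0.69 for PSMB9.

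Within each batch of cells, all 5 inducible genes had a difference above 0 in all 5 pairwise comparisons. Their median between siLATS1/2/p53 and siControl cells was 1.00 in batch 1 and 1.03 in batch 2, and over the 41 other genes it was 0.22 and 0.07. PSMB8 differed by 1.31 in batch 1 and 1.20 in batch 2, and PSME2 by 1.00 and 1.03. PSMB9 was the least even of the 5 in the single knockdowns, with 1.68 in batch 1 and 0.19 in batch 2 for siLATS1/2 and with 1.56 and 0.58 for sip53. The comparisons against siControl share the same 2 siControl libraries, and those of siLATS1/2/p53 cells share the same 2 siLATS1/2/p53 libraries. The values of a gene in these comparisons are therefore not independent of each other.

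**Figure D4:**
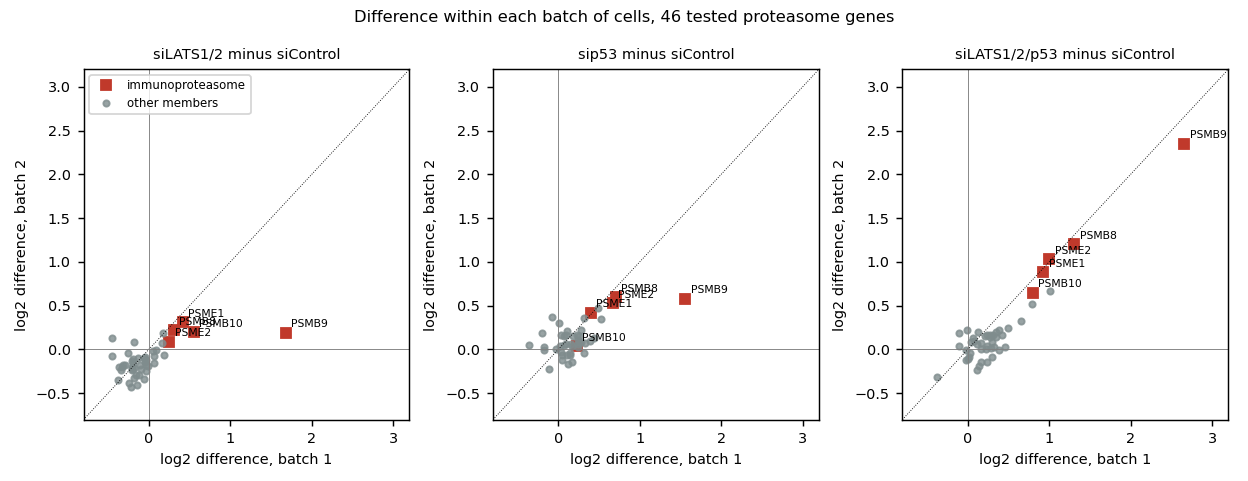
Log2 difference from siControl in batch 1 (horizontal axis) against batch 2 (vertical axis) for the 46 tested proteasome genes in each of the 3 knockdown groups, with immunoproteasome genes as red squares and the dotted line marking equal values. In siLATS1/2/p53 cells the 5 squares lie close to that line, PSMB8 at 1.31 and 1.20, and in siLATS1/2 cells PSMB9 lies at 1.68 and 0.19.

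Genes that work with the proteasome were read beside it. Of 14 tested cofactors and assembly factors, 1 rose and 1 fell in siLATS1/2/p53 against siControl cells, beside 9.07% and 5.48% of all entries. These counts were near the background. The genes were PITHD1 (0.98 ± 0.12, adjusted p = 0.00389) and the ubiquitin ligase gene UBE3A (−0.36 ± 0.09, 0.0377). PITHD1 was 10.00 and 9.77 in siLATS1/2/p53 cells and 8.82 and 8.99 in siControl cells, with 9.13 and 9.21 in siLATS1/2 and 9.53 and 9.40 in sip53 cells. Between siLATS1/2/p53 and siLATS1/2 cells, PITHD1 (0.72 ± 0.12, 0.0137) and PAAF1, which binds the ATPases (0.63 ± 0.14, 0.026), rose and none fell. Of all entries, 11.3% were called higher and 3.22% lower there. After rescaling PAAF1 no longer passed (0.0677) and UBE3A was called lower (−0.32, 0.0481). POMP, the maturation factor of the core, differed by −0.34 ± 0.09 in siLATS1/2 against siControl cells (adjusted p = 0.0618, and 0.00463 with the block). Neither single knockdown called any of the 14 without the block.

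Of 16 regulators of proteasome genes, STAT3 was the member called without the block. It fell by 0.54 on the log2 scale in sip53 cells (adjusted p = 0.0267) and by 0.34 in siLATS1/2/p53 cells (0.0355), each against siControl. STAT3 was also called lower in siLATS1/2/p53 than in siLATS1/2 cells, with means of 11.61 and 11.93. Of all entries, 2.1%, 5.48% and 3.22% were called lower in these comparisons, in the same order. Against siControl and with the block, 1 of the 16 rose and 3 fell in siLATS1/2 cells. In sip53 and in siLATS1/2/p53 cells alike, 3 rose and 2 fell. Of all entries, 10.5% rose and 21.4% fell in siLATS1/2, 16% and 10% in sip53, and 25.5% and 13.8% in siLATS1/2/p53 cells. These counts were therefore near the background. NFE2L1, the factor that raises constitutive subunit genes when proteasome capacity is short, differed by 0.32 ± 0.14 in siLATS1/2 cells (adjusted p = 0.193, and 0.00594 with the block) and by 0.21 ± 0.14 in siLATS1/2/p53 cells (0.353 and 0.0463). NFE2L2, its relative in the oxidative stress response, passed in no comparison. Of 16 NFE2L2 target genes, 3 rose and none fell in siLATS1/2/p53 against siControl cells, beside 9.07% and 5.48% of all entries. These were HMOX1 (1.09 ± 0.20, 0.0137), FTL (0.80 ± 0.15, 0.0141) and TXNRD1 (0.91 ± 0.18, 0.0167). In siLATS1/2 against siControl cells HMOX1 was likewise called higher, and SRXN1 was called lower. HMOX1 averaged 6.71 in siLATS1/2, 5.87 in sip53, 6.90 in siLATS1/2/p53 and 5.81 in siControl cells. With the block, 8 of these targets rose and 2 fell in siLATS1/2/p53 against siControl cells, beside 25.5% and 13.8% of all entries. Of 19 entries for ubiquitin and its delivery to the proteasome, none passed against siControl in any group without the block. With it, 6 fell in siLATS1/2 cells, 2 rose and 2 fell in sip53 cells, and 3 rose and 2 fell in siLATS1/2/p53 cells. Set beside the same shares of all entries, these counts were near or below the background but for the 6.

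Among 23 tested genes of MHC class I antigen processing and its regulators, 4 rose and 3 fell in siLATS1/2/p53 against siControl cells. Their median was 0.42, and of all entries 9.07% rose and 5.48% fell. TAP1 and TAP2, which encode the peptide transporter and lie beside PSMB8 and PSMB9 in the MHC region, rose by 0.42 ± 0.11 (adjusted p = 0.0405) and 0.53 ± 0.08 (0.00698). IRF1, a factor that binds interferon response elements, was 9.78 and 9.76 in siLATS1/2/p53 cells and 8.95 and 8.81 in siControl cells, with 9.40 and 9.02 in siLATS1/2 and 9.04 and 8.88 in sip53 cells. It rose by 0.88 ± 0.15 over siControl (adjusted p = 0.00992), 0.56 ± 0.15 over siLATS1/2 (0.0437) and 0.81 ± 0.15 over sip53 cells (0.0291). IRF2 rose by 0.51 ± 0.13 (0.0459), and JAK1, a kinase of the interferon receptors, fell by 0.33 (0.0274). After rescaling by medians of ratios, TAP1 (adjusted p = 0.0765) and IRF2 (0.0651) no longer passed against siControl, nor did IRF1 against siLATS1/2 (0.12). With the block, 16 of the 23 were called higher and 3 lower, beside 25.5% and 13.8% of all entries, so that the share called lower was near the background. Whether the level of IRF1 plays a part in the rise of the inducible subunits was not tested.

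Blood and endothelial markers were read beside these results, and their part in them was not tested. Of 10 such genes, 8 were at the floor in all libraries, and the linear level above the floor, summed over the other 2, CD14 and KDR, was 543 and 362 in siLATS1/2/p53 cells and 269 and 254 in siControl cells. It was 241 and 180 in siLATS1/2 and 534 and 390 in sip53 cells. Neither marker passed without the block, and both were called higher with it in siLATS1/2/p53 against siControl cells. KDR was 6.13 and 5.47 in siLATS1/2/p53 cells and at the floor in every other library. It entered the test only through the group where it was high, so its call is no support for a difference. PTPRC, CD3E, LYZ, PECAM1, VWF, CDH5 and HBB, which mark these cell types, were among the 8 at the floor. In bulk RNA, fewer cells of a type and less RNA per cell cannot be told apart.

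Other large complexes gave a scale for the constitutive genes. Of the 8 genes of the CCT chaperonin, a protein-folding complex, 2 fell in siLATS1/2 against siControl cells (CCT2 and CCT4) and none passed in siLATS1/2/p53 against siControl cells. Their median was −0.32 in siLATS1/2 cells, and 0.22 between siLATS1/2/p53 and siLATS1/2 cells, where 2 rose (CCT4 and CCT7). With the block, 6 of the 8 fell in siLATS1/2 against siControl cells and CCT8 fell in siLATS1/2/p53 against siControl cells. Of all entries, 21.4% and 13.8% were called lower in these fits, and 4.89% in siLATS1/2 cells without the block. After rescaling CCT8 also passed in siLATS1/2/p53 against siControl cells (−0.28, adjusted p = 0.0461), while the calls of CCT2 (0.0733) and CCT7 (0.0914) were lost. Of the 9 genes of the COP9 signalosome, which is related in build to the lid of the proteasome, COPS8 fell in all 5 pairwise comparisons. COPS8 was 9.64 and 9.31 in siLATS1/2/p53 cells, 10.15 and 10.12 in siLATS1/2, 10.33 and 10.26 in sip53, and 11.55 and 11.21 in siControl cells. Over the 9 COP9 genes the median was −0.26 in siLATS1/2 against siControl cells, and 0.28 between siLATS1/2/p53 and siLATS1/2 cells. Without the block COPS7B rose in siLATS1/2/p53 against siControl cells and COPS3 against siLATS1/2 cells, and neither passed after rescaling. With the block, 5 fell in siLATS1/2 against siControl cells, beside 21.4% of entries. Against siLATS1/2 cells, 7 rose and 1 fell in siLATS1/2/p53 cells, beside 33.8% and 9.72%. No test of the difference between these complexes and the proteasome was made.

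Limits on single genes come from how reads are assigned. The library kit does not mark strand, and in the GENCODE annotation PSMB8 and PSMB9 overlap each other on opposite strands, PSME1 overlaps EMC9, PSME2 overlaps RNF31 and PSME4 overlaps ACYP2, so reads in shared positions cannot be told apart. In all, 23 of the 48 genes share exon positions with another gene and 17 have named pseudogenes, among them PSMC1 with 13, PSME2 with 6 and PSMA6 with 4, whose values are the more uncertain.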

How the data were processed

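Polyadenylated RNA was sequenced with an unstranded TruSeq version 2 kit per the labels' protocols, and TopHat and hg19 were used per the submitters' processing notes. The authors deposited log2 expression levels with a floor of 5. No source used here gives the counter, annotation, scaling or depth. The series table held the same values as the per-library files for 8 of 8 libraries. The test was limma 3.58.1 under R 4.3.3, on the 12315 of 29991 entries that exceeded the floor in 2 or more libraries (mean-variance trend, 1 fit over 4 groups, 4 residual degrees of freedom) with Benjamini-Hochberg adjustment over all of them and a threshold of 0.05. SD is between the 2 libraries of a group. The labels tie each replicate number to a batch of cells, and deviations of same-numbered libraries from group means correlated between 0.565 and 0.726. Values with the batch as a block are therefore printed as counts for each comparison, and gene by gene for part of the calls that the block changes. The fit without the block was checked on simulated data that held no batch effect, so this check does not cover the batch or the block.

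Members follow the naming rule. Values in every library are given for the 12 called members with the smallest adjusted p, the inducible genes and their counterparts. The members, lists and tests were chosen with earlier results of these data known. Of each other list, genes called with the smallest p and NFE2L1, NFE2L2, POMP, IRF1 and TAP1 are named. The lists held cofactors, regulators, ubiquitin delivery, antigen processing, NFE2L2 targets, CCT, COP9 and cell type markers. The alternatives were rescaling, other filters, a pseudocount of 1, the block, only the groups compared, no trend, each library left out and, chosen after seeing the data, leaving out the 2 shallowest libraries and, with the block, siLATS1/2 replicate 1. Promoter windows of 42 of 48 members came from RefSeq (GRCh38.p14) and overlaps from GENCODE v29 on GRCh38. The levels of some listed genes are not reported here.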

Additional observations from a re-analysis of the deposited data

How the results depend on the processing

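No called difference and no median over the members changed sign under the alternatives run. With the replicate block, 4 members were called higher and 11 lower in siLATS1/2 against siControl cells, 9 higher in sip53, 17 higher in siLATS1/2/p53, 30 higher in siLATS1/2/p53 against siLATS1/2, and 7 higher and 1 lower in siLATS1/2/p53 against sip53. With the block and rescaling by medians of ratios the counts were 5 higher and 2 lower for siLATS1/2, 8 higher and 1 lower for sip53, 11 higher and 1 lower for siLATS1/2/p53, 16 higher and 1 lower for siLATS1/2/p53 against siLATS1/2, and 7 higher and 1 lower for siLATS1/2/p53 against sip53. Rescaling left 4 members higher in siLATS1/2/p53 against siLATS1/2, with a median of 0.16, and a median interaction of 0.12, as it did with the block. Keeping entries above the floor in all 8 libraries called 1 member higher in sip53. Fitting the compared groups alone gave 3 higher and 0 lower for siLATS1/2/p53 against siControl and 0 for siLATS1/2/p53 against siLATS1/2, and without the trend 0 were lower in siLATS1/2/p53. Without the 2 shallowest libraries 0 members were called in either comparison. With the block and without siLATS1/2 replicate 1, 0 were called in siLATS1/2, 8 were higher in sip53, 14 higher and 1 lower in siLATS1/2/p53, 16 higher in siLATS1/2/p53 against siLATS1/2, and 7 higher in siLATS1/2/p53 against sip53. The cause of these shifts was not tested, though fewer libraries or groups leave fewer degrees of freedom. The counts with the block and rescaling, and those without siLATS1/2 replicate 1, stand without the share of entries called in the same direction. They are not read as results about the members.

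Leaving out each library in turn gave 2 to 7 members higher and 0 lower in siLATS1/2/p53 against siControl cells and 0 to 13 higher against siLATS1/2 cells. PSMB2 and PSME2 passed against siControl in 8 of 8 such fits. Over all entries, the 948 calls of siLATS1/2 became 43 to 700, the 475 of sip53 18 to 165, the 1792 of siLATS1/2/p53 553 to 1265, the 1791 against siLATS1/2 12 to 1837, and the 451 against sip53 49 to 362. With the block they were 3937, 3199, 4832, 5361 and 2720. With the block and rescaling they were 3473, 3049, 4717, 4205 and 2830. All these totals join both directions, so they give no background for a count of members called in 1 direction. Fitting the compared groups alone called 374 entries in siLATS1/2/p53 against siControl and 0 in the other pairs, and without the 2 shallowest libraries 0 were called in each pair. The interaction called 0 entries, 250 with the block and 112 with the block and rescaling. Without the trend 294 were called in sip53, and with the block and without siLATS1/2 replicate 1 the counts of sip53, siLATS1/2/p53 and siLATS1/2/p53 against sip53 were 2190, 4020 and 1840. Depth limits PSMB9, which lay near the floor.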
